A study of Mus musculus with 2 samples.

Results

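The genes described here are 33 genes of glycolysis and of the response to low oxygen, listed by symbol and all present in both count matrices, which hold 31054 features. They were followed through the cell populations of pancreatic tumours grown as allografts in mice of the genotype p16-CreERT2/R26-LSL-tdTomato, in which a Cre recombinase under the p16 promoter, active only with tamoxifen, removes a stop sequence before the red reporter tdTomato. The labels give the tissue as tumor and the cell type as stromal cells, and give no age, tumour line, number of animals or induction schedule. Cells dissociated with enzymes were sorted by FACS into a tdTomato positive and a tdTomato negative fraction, and each fraction gave 1 library of the 10x Genomics 3′ v3.1 kit, called Tom positive and Tom negative below. Both libraries share the genotype and the allograft, and no library from mice without the reporter or without a tumour was analysed here.

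Glycolysis turns glucose into pyruvate in the cytosol, and lactate dehydrogenase and a lactate exporter let it run without mitochondria. Its enzymes share a regulator with a wider set of genes: the hypoxia-inducible factors (HIF), whose alpha subunits are marked for breakdown by oxygen-dependent prolyl hydroxylases and, when oxygen is short, pair with Arnt and bind short DNA motifs near their targets. In tumours the same genes are also known to respond to growth factors and to inflammatory activation of myeloid cells, and pancreatic tumours are known as poorly perfused.

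Levels are given as CPM, the unique molecular identifiers (UMIs) of a gene per 1000000 UMIs summed over the cells of a population in 1 library. The kit counts 3′ ends, so CPM is not scaled to transcript length and levels are compared between populations, never between genes. The summary score is the mean over the 33 genes of log2(CPM + 1), and differences are given on the same log2(CPM + 1) scale. With 1 library per sort, no test across animals can be made and cells of a library are not replicates: a difference between populations is counted only when it is at least 1.5-fold the same way in both libraries, for genes at 10 CPM or more in 1 of the 2 populations of each library. Such counts are set beside the share of all genes that meet the same rule. A gene that reached 10 CPM in only 1 of the 2 groups compared could be counted only as higher in that group. All intervals are 95% intervals and cover counting error only.

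The filters on cells kept 4302 barcodes of the Tom positive and 6580 of the Tom negative library, with medians of 24191 and 20611 UMIs. The libraries share 3660 barcodes, and 234 and 1233 of the kept cells carried a shared barcode that was doubted, because the other library held it with over 5 times the UMIs or both held it with under 5000. Over all kept cells the reporter had 547 CPM (Tom positive) and 29.7 CPM (Tom negative).

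Populations come from clusters made without the 33 genes, without 62 other pathway genes and without tdTomato, and are called by a leading gene. Fibroblast-like cells (1317 Tom positive and 1964 Tom negative) fell into clusters led by Fmod, Col8a2 and Comp (Fmod fibroblasts), by Hmcn2, Abca8a and Sfrp4 (Sfrp4 fibroblasts), by Cemip, Ctla2a and Cxcl5 (Cemip fibroblasts), by Dmkn, Sema3e and Cd55 (Dmkn fibroblasts), and a cycling cluster. A further cluster of 231 and 554 cells was led by Actg2, Tnc and Bmpr1b with Tagln and Acta2. It held all 8 fibroblast markers, but because the smooth muscle marker Acta2 was among its leading genes it was given no type, and it is called the Tnc/Acta2 cells. Macrophage-like cells (688 and 890) included clusters led by Ms4a7, Folr2 and Pf4 (Folr2 macrophages), by Rsad2, Nos2 and Mmp12 (Nos2 macrophages) and by Retnla and Lyz1 (Retnla macrophages). Monocyte-like cells were led by Chil3 and F13a1, and a myeloid cluster led by Chil3, Car4 and Mcemp1 and another led by Ccl17, Ccr7 and Ccl22 stayed unnamed. Neutrophil-like cells (289 and 541) were split into clusters led by Cd177 and by Prok2 and Acod1. The others were endothelial-like (509 and 237), lymphatic endothelial-like, pericyte or smooth muscle-like (mural below) and epithelial or carcinoma-like cells. Since the clusters were drawn from the same cells, values that compare them are descriptions.

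To show the DNA on which HIF is known to act, the stretches upstream of 8 of the genes are printed here, taken from the RefSeq promoter table of build GRCm38.p6. The motif searched was the HIF core, ACGTG or GCGTG, on both strands (the reverse strand reads CACGT or CACGC), in the 250 bases before each annotated start, with overlapping matches merged into 1 site. Each stretch is 80 bases long, reads 5′ to 3′ on the gene's strand and overlaps no exon of the GENCODE M21 annotation. It was chosen, among such stretches of the gene, to hold the most sites. Capitals mark the motif, and all 8 genes are among those past 1.5-fold in the Nos2 macrophages.
Slc2a1, chr4:119108631-119108710, plus strand: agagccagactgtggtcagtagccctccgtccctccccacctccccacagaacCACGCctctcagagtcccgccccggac
Pgk1, chrX:106186947-106187026, plus strand: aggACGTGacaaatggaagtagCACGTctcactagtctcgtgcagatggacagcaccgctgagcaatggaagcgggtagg
Ldha, chr7:46845724-46845803, plus strand: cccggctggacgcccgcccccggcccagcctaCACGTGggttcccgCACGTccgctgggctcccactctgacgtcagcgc
Slc16a3, chr11:120948973-120949052, plus strand: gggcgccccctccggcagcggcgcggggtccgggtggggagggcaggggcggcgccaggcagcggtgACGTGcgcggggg
Egln3, chr12:54204027-54204106, minus strand: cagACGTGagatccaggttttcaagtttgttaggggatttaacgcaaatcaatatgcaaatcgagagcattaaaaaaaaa
Ero1l, chr14:45318584-45318663, minus strand: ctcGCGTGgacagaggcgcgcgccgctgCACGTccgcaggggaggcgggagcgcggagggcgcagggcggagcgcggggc
Bnip3, chr7:138909547-138909626, minus strand: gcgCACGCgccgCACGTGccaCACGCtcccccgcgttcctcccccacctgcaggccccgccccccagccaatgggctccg
Ankrd37, chr8:45999929-46000008, minus strand: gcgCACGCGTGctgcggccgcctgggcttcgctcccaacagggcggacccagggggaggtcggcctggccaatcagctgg

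The stretches of Slc2a1, Pgk1, Egln3 and Bnip3 lie outside any annotated gene span. Those of Ldha, Slc16a3, Ero1l and Ankrd37 lie within the annotated span of the same gene but outside its exons, and that of Ankrd37 also within the span of Lrp2bp. Bnip3, which encodes a receptor for the removal of mitochondria, had 3 sites in its stretch, and Pgk1, Ldha and Ero1l had 2 each. Of the 33 genes, 32 were matched to the table (Ero1l under its current symbol Ero1a) and Ndrg1 was not. The motif was present upstream of 30 of the 32 (93.8%), against 41.5% of all 27025 genes of the table, and Gpi1 and Tpi1 had no match. Counted per window, 79.2% of 48 windows of the 33 genes and 38.6% of 32851 windows held it. The windows of the 33 genes were richer in G and C (median 62.8% against 52.4%), and among windows with at least 60% of G and C the motif was in 93.1% of 29 and 63.8% of 9178. A match is a description of the letters, not evidence of a bound site.

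The 33 genes stood highest, in both libraries, in 3 myeloid populations. The score was 8.29 in Tom positive and 8.23 in Tom negative Nos2 macrophages, 8.03 and 8.07 in Prok2 neutrophils, and 7.79 and 7.91 in monocyte-like cells. These 3 held the same places in both libraries, ahead of the other 16 populations. The lowest scores were those of Sfrp4 fibroblasts (5.42 and 5.56) and Fmod fibroblasts (5.69 and 5.73), also in the same places in both libraries. As a share of all UMIs, the 33 genes made up 2.62% and 2.49% in Nos2 macrophages, 2.17% and 2.20% in Prok2 neutrophils, and 0.310% and 0.334% in Sfrp4 fibroblasts. The Tnc/Acta2 cells, at 6.98 and 7.12, lay above every fibroblast cluster in both libraries, and the class of fibroblast-like cells was at 5.95 and 6.19. Epithelial or carcinoma-like cells, at 7.03 and 7.68, differed most between the libraries, on 28 and 42 cells, of which 15 in the Tom negative library carried doubted barcodes.

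**Figure D1:**
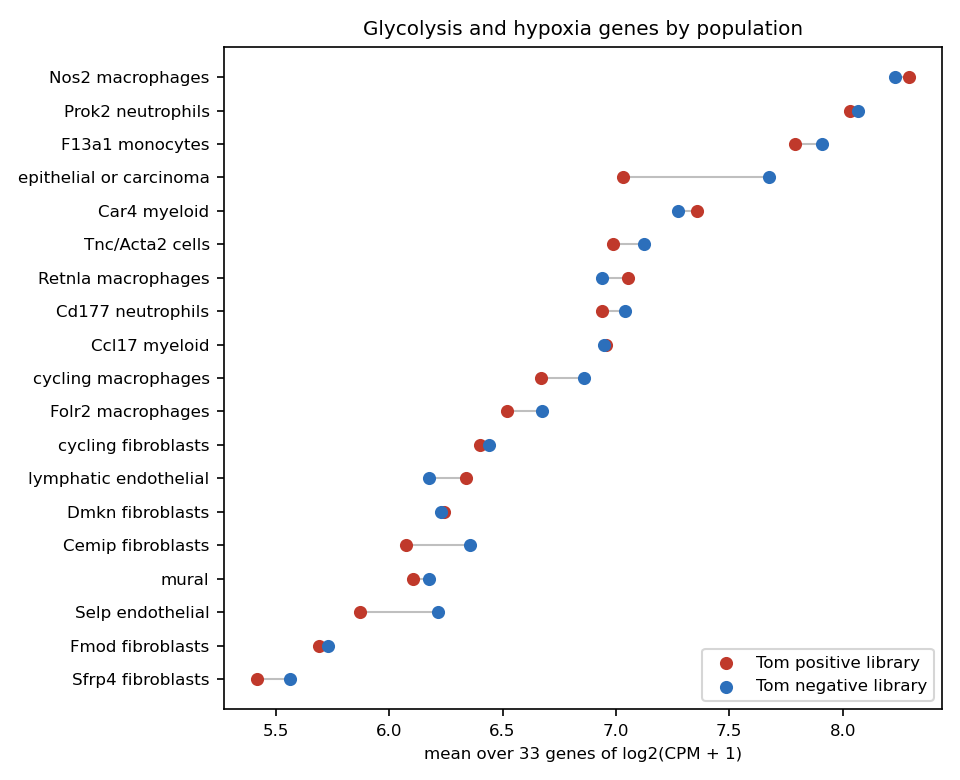
Mean over the 33 genes of log2(CPM + 1) (horizontal axis) in 19 populations (vertical axis, ordered by the mean of both libraries), with red points for the Tom positive and blue points for the Tom negative library and a grey line joining them. Nos2 macrophages, Prok2 neutrophils and F13a1 monocytes lie at 7.79 or above in both libraries, and Sfrp4 and Fmod fibroblasts at 5.73 or below.

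For 27 of the 33 genes the same population was highest in both libraries. Prok2 neutrophils were highest for 11 of them, Nos2 macrophages for 6 and monocyte-like cells for 3. The other 7 had 7 different populations. Of these, 3 were highest in a stromal population. P4ha2, a subunit of the enzyme that hydroxylates proline in collagen, was highest in the Tnc/Acta2 cells (179 and 212 CPM), and Adm, a vasodilator peptide, in Dmkn fibroblasts (446 and 403 CPM). Pfkm, the muscle form of phosphofructokinase, was highest in Fmod fibroblasts, at only 12.98 and 13.7 CPM. Car9, a carbonic anhydrase of the cell surface, was highest in epithelial or carcinoma-like cells (99.4 and 87.9 CPM) and under 10 CPM in the other 18 populations of both libraries. Pfkfb4 was highest in Retnla macrophages (69.8 and 55.6 CPM), Slc16a3 in Cd177 neutrophils and Mxi1 in Folr2 macrophages.

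**Figure D2:**
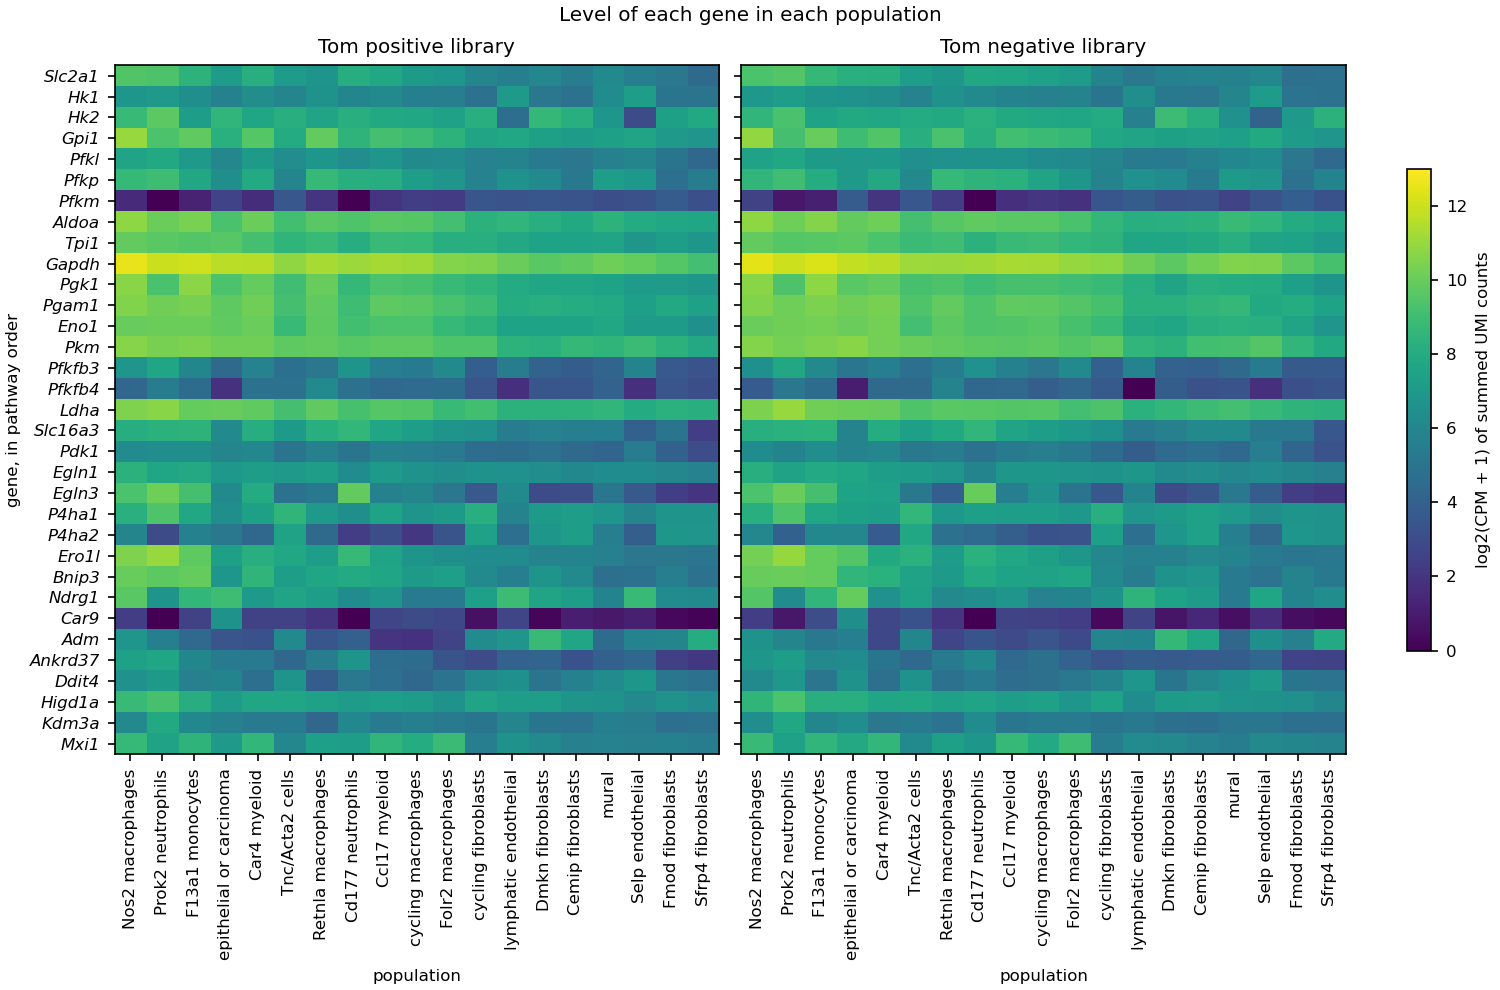
Level of each of the 33 genes (rows, in pathway order) in 19 populations (columns, from the highest to the lowest mean score) as log2(CPM + 1) of summed UMI counts, with the Tom positive library on the left and the Tom negative library on the right. Most rows are brightest in the left columns, while P4ha2 and Adm are brighter in stromal columns and Car9 stands out only in the epithelial or carcinoma column.

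The glucose transporter and the hexokinases differed most in where they were low. Slc2a1, which carries glucose into the cell, reached 701 CPM (Tom positive) and 643 CPM (Tom negative) in Nos2 macrophages and 661 and 732 CPM in Prok2 neutrophils. Its level in fibroblast-like cells was 40.0 and 45.6 CPM, far below both of these in each library. Hk2, the inducible hexokinase, was high in Prok2 neutrophils (832 and 625 CPM) and in Dmkn fibroblasts (406 and 476 CPM). In endothelial-like cells it was at 7.29 and 20.2 CPM. Hk1, the constitutive hexokinase, went the other way: it was at 151 and 139 CPM in endothelial-like cells and at 30.7 and 33.2 CPM in fibroblast-like cells.

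Within macrophages, the Nos2 cells stood above the Folr2 cells in nearly every step from glucose to lactate. Of 31 genes at 10 CPM or more, 28 were higher by 1.5-fold or more in both libraries and 0 were lower. Of all 8027 genes compared, 9.03% were higher and 25.2% lower, so the 33 genes went against the general direction. Their median difference was 1.69 in the Tom positive and 1.32 in the Tom negative library, against -0.30 and -0.29 over all genes. The 3 that did not pass were Pfkfb3 and Pfkfb4, which make and break the activator of phosphofructokinase, and Mxi1, a repressor of Myc targets. Pfkm and Car9 were too low to compare.

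Among the glycolytic enzymes of macrophages, Gapdh was at 6021 and 5619 CPM in Nos2 cells and at 1552 and 1961 CPM in Folr2 cells, which is 3.88-fold (interval 3.79 to 3.97) and 2.87-fold (2.81 to 2.93) higher. Gpi1, the isomerase after hexokinase, was at 2065 and 1919 CPM against 334 and 396 CPM, the widest gap of the core enzymes at 6.18-fold and 4.84-fold. Eno1, with 1021 and 1061 CPM against 413 and 592 CPM, was 2.47-fold and 1.79-fold higher, the latter being the narrowest gap of the core enzymes in the Tom negative library. Pfkl, Pfkp, Aldoa, Tpi1, Pgk1, Pgam1 and Pkm, which also lie between hexokinase and pyruvate, had differences from 1.01 to 1.94 on the log2 scale. Ldha, which turns pyruvate into lactate, was at 1429 and 1375 CPM against 425 and 549 CPM. Slc16a3, which exports lactate, was at 275 and 278 CPM against 105 and 122 CPM. Pdk1, a kinase that shuts pyruvate out of the mitochondrial cycle, was at 77.4 and 78.6 CPM against 40.7 and 37.6 CPM.

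Some hypoxia targets outside glycolysis had wider gaps between these macrophages than any core enzyme, and others did not. Egln3, a HIF prolyl hydroxylase that HIF itself induces, was at 640 and 631 CPM in Nos2 cells and at 34.5 and 30.5 CPM in Folr2 cells, which is 18.6-fold (16.3 to 21.2) and 20.7-fold (18.0 to 23.9) higher. Its relative Egln1 was 3.76-fold and 2.68-fold higher. Ndrg1, a stress-induced gene of cell differentiation, was at 827 and 744 CPM against 40.6 and 56.7 CPM. Ero1l, an oxidase that forms disulfide bonds in the endoplasmic reticulum, was at 1411 and 1242 CPM against 87.0 and 119 CPM. Both differed by more than 10-fold in each library, and so did Adm, at 107 and 96.2 CPM against 5.42 and 6.51 CPM. Ankrd37, a short ankyrin repeat protein, was at 174 and 118 CPM against 9.51 and 16.1 CPM. Bnip3 was at 1007 and 1011 CPM against 160 and 199 CPM, and P4ha2 at 59.9 and 63.5 CPM against 9.38 and 9.11 CPM. P4ha1, Ddit4, Higd1a and Kdm3a were higher by only 0.73 to 2.05 on the log2 scale, and Mxi1 was at 416 and 429 CPM against 463 and 504 CPM.

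The other genes of the pathway were less uniform between the 2 macrophage clusters. Among 17 further hypoxia targets at 10 CPM or more, 12 were higher and 1 (Plod1) lower in both libraries, among them Vegfa, the angiogenic factor, at 594 and 490 CPM against 229 and 257 CPM, and Mif, a cytokine, at 2137 and 2028 CPM against 460 and 616 CPM. Of 15 isoforms and alternative enzymes, 3 were higher and 3 lower. The transcript of the factor subunit Hif1a was at 589.5 and 589.6 CPM in the Nos2 cells and at 589.6 and 609 CPM in the Folr2 cells, ratios of 0.9998 (0.946 to 1.06) and 0.969 (0.922 to 1.02). Hspa1a and Hspa1b, heat shock genes of the dissociation list, moved with the 33 genes: Hspa1b was at 750 and 681 CPM in Nos2 cells and at 9.91 and 12.9 CPM in Folr2 cells. The 7 genes of that list together went the other way, at 3051 and 3262 CPM against 4046 and 4242 CPM. Their part in the result was not tested. Median depth was 23413 and 21583 UMIs in Nos2 cells against 16367 and 15681, and 1 Nos2 cell in all carried a doubted barcode.

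**Figure D3:**
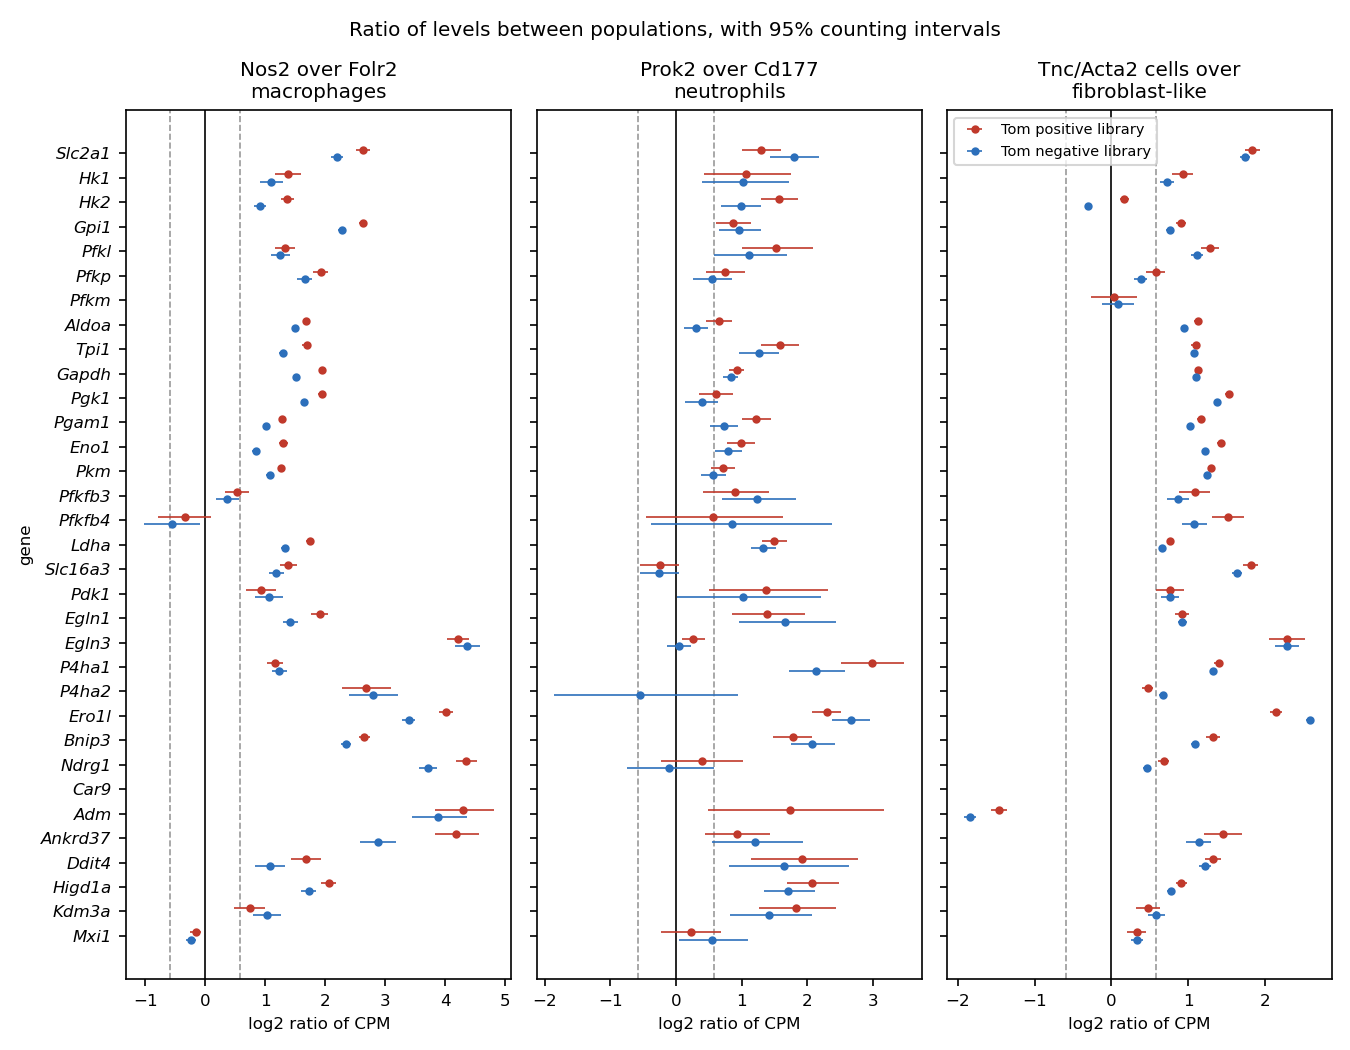
Log2 ratio of CPM (horizontal axis) for each of the 33 genes (vertical axis) between Nos2 and Folr2 macrophages (left), Prok2 and Cd177 neutrophils (middle) and the Tnc/Acta2 cells and fibroblast-like cells (right), in red for the Tom positive and blue for the Tom negative library. Bars are 95% counting intervals and dashed lines mark 1.5-fold. In the left panel 28 of 31 genes lie right of the upper line in both libraries, and on the right only Adm lies left of the lower line. Genes too low to compare, or with 3 UMIs or fewer in either population, have no point in that library, among them Adm of the Tom negative library in the middle panel.

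2 other myeloid clusters were set against the Folr2 macrophages. Retnla macrophages were higher for 9 of 30 genes (8.58% of 8089 genes were) and lower for 2 (12.1% were), on 30 and 89 cells. Pfkfb4 was at 69.8 and 55.6 CPM against 23.3 and 18.7 CPM, and Mxi1, 1 of the 2 lower genes, at 161 and 167 CPM against 463 and 504 CPM. The Ccl17 cells were higher for Pfkp, Slc16a3, Ero1l and Ndrg1, 4 of 29 genes (5.3% of 8001 genes), and lower for 0 (7.75%). These comparisons and that of the Nos2 cells share the Folr2 macrophages.

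In monocyte-like cells 8 hypoxia genes outside glycolysis were higher than in the Car4 myeloid cells, while Egln1, P4ha1, Ddit4, Higd1a and Mxi1 did not pass. Past 1.5-fold in both libraries were 9 of 31 genes, all higher, where 7.76% of 7835 genes were higher and 10.5% lower. The 9 were Pgk1, Egln3, P4ha2, Ero1l, Bnip3, Ndrg1, Adm, Ankrd37 and the histone demethylase Kdm3a. Ero1l was at 870 and 974 CPM in the monocyte-like and at 297 and 237 CPM in the Car4 cells, and Bnip3 at 969 and 974 CPM against 365 and 318 CPM. Pgk1, which makes ATP from 1,3-bisphosphoglycerate, was at 1680 and 1788 CPM against 987 and 928 CPM and was the only core enzyme of glycolysis to pass. This pair of clusters was found in the main clustering alone. Under each of the 7 alternative cell filters or clusterings no such pair was found, so no value could be given there.

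Among neutrophils the Prok2 cells had the higher levels. They were higher than Cd177 neutrophils for 21 of 30 genes in both libraries and lower for 0, while 10.7% of 7038 genes were higher and 20.1% lower. The median difference was 1.142 and 1.003, against -0.28 and -0.16 over all genes. Ero1l was at 2017 and 1994 CPM in Prok2 and at 412 and 316 CPM in Cd177 neutrophils. P4ha1, the other catalytic subunit of collagen prolyl hydroxylase, was at 692 and 696 CPM against 87.8 and 158 CPM, 7.87-fold (5.72 to 11.1) and 4.40-fold (3.31 to 5.98) higher. These 2 genes had the widest gaps with intervals clear of 1.5-fold in both libraries, followed by Bnip3, at 851 and 1052 CPM against 249 and 250 CPM, and Higd1a, a mitochondrial inner membrane protein, at 591 and 631 CPM against 140 and 193 CPM.

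Some of the genes did not separate the 2 kinds of neutrophil. Egln3 was at 1117 and 1038 CPM in Prok2 and at 930 and 1008 CPM in Cd177 neutrophils. It was therefore high in both, while fibroblast-like cells had 5.93 and 7.40 CPM. Slc16a3 was also high in both, at 329 and 315 CPM in Prok2 and 391 and 376 CPM in Cd177 neutrophils. Among the enzymes, Pgk1, Aldoa, Pkm and Pfkp fell short of 1.5-fold in at least 1 library. Ldha did pass, at 1678 and 2004 CPM against 594 and 797 CPM, and so did Hk2, at 832 and 625 CPM against 280 and 316 CPM.

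Neutrophils were the shallowest of the myeloid populations, at medians of 2693 to 3594 UMIs per cell, and the Cd177 cluster held 478273 UMIs in the Tom positive and 316332 in the Tom negative library. At that depth 10 CPM is only 3 to 5 UMIs, so calls of low genes are loose: the count of Adm in Cd177 cells was 7 and 3 UMIs, and the interval of the Pdk1 ratio in the Tom negative library ran from 1.01 to 4.60. The heat shock genes again moved with the 33 genes, Hspa1a being at 1843 and 838 CPM in Prok2 and at 12.6 and 9.48 CPM in Cd177 neutrophils, and their part was not tested. Of other pathway genes at 10 CPM or more, 13 of 33 were higher and 4 lower. Vegfa was at 661 and 563 CPM against 268 and 155 CPM, and Slc2a3, a glucose transporter of high affinity, at 153 and 201 CPM against 73.2 and 75.9 CPM. The Prok2 and Cd177 clusters were not both found under 3 of the alternative cell filters.

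Between the 2 populations with the highest scores, Prok2 neutrophils and Nos2 macrophages, 6 of 31 genes were higher in the neutrophils (20.1% of 7680 genes were) and 8 in the macrophages (31.1% were), shares that lie near those of all genes. Higher in the neutrophils were Hk2, Pfkfb3, Pfkfb4, Egln3, P4ha1 and Kdm3a. Kdm3a was at 237 and 212 CPM there and at 67.4 and 81.0 CPM in the macrophages. Higher in the macrophages were Gpi1, Aldoa, Pgk1, Egln1, P4ha2, Ndrg1, Adm and Mxi1. Ndrg1 was at 827 and 744 CPM in Nos2 macrophages and at 104 and 76.0 CPM in Prok2 neutrophils.

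Set against fibroblast-like cells, both myeloid classes carried more of nearly all of these transcripts. In macrophage-like cells 26 of 31 genes were higher and 2 lower, where 28.6% and 25.0% of 9460 genes were. In neutrophil-like cells 28 of 31 were higher and 2 lower, where 23.4% and 41.1% of 9257 genes were. In each comparison the 2 lower genes were P4ha2 and Adm. P4ha2 was at 129 and 133 CPM in fibroblast-like cells, at 19.9 and 23.9 CPM in macrophage-like cells and at 5.80 and 16.6 CPM in neutrophil-like cells. Adm was at 194 and 219 CPM in fibroblast-like, 27.4 and 28.8 CPM in macrophage-like and 32.9 and 49.8 CPM in neutrophil-like cells. Both comparisons share the fibroblast-like cells. Other pathway genes were less uniform: 17 of 43 were higher and 11 lower in macrophage-like cells, and 17 of 40 higher and 13 lower in neutrophil-like cells. Of 19 further hypoxia targets among them, 6 were higher and 6 lower in macrophage-like cells, and 9 higher and 8 lower in neutrophil-like cells. Some glycolytic enzymes, Gapdh, Pgk1 and Ldha among them, have many processed pseudogenes in the mouse genome, and how the authors' counting treated reads shared with them is not given in the sources used here.

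In the stroma, the Tnc/Acta2 cells were the high point. Of 32 genes, 24 were higher than in fibroblast-like cells in both libraries and 1, Adm, was lower, while 8.01% of 8734 genes were higher and 9.9% lower. The median difference was 1.11 and 0.98, against 0.10 and 0.11 over all genes. Slc2a1 was at 143 and 153 CPM against 40.0 and 45.6 CPM, and Slc16a3 at 136 and 163 CPM against 38.6 and 52.3 CPM. The transcripts of the importer of glucose and of the exporter of lactate were thus both more than 3-fold higher in each library. Ero1l was at 213 and 311 CPM against 48.1 and 51.6 CPM, 4.42-fold (4.18 to 4.68) and 6.03-fold (5.80 to 6.27) higher.

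All core enzymes of glycolysis from Gpi1 to Pkm passed in the Tnc/Acta2 cells except Pfkp and Pfkm. Eno1 was at 448 and 562 CPM against 167 and 241 CPM, and Pgk1 at 518 and 600 CPM against 179 and 230 CPM. The hexokinases differed from each other: Hk1 was 1.90-fold and 1.65-fold higher, whereas Hk2 was at 287 and 252 CPM against 255 and 311 CPM, higher in 1 library and lower in the other. P4ha1 was at 362 and 385 CPM against 137 and 154 CPM. Adm was at 70.3 and 61.3 CPM against 194 and 219 CPM, in contrast to its higher level in Nos2 macrophages. Egln3 and Ankrd37 were also higher, but low: Egln3 was at 29.0 and 36.3 CPM, and the 6 immune transcripts of the list used as a check summed to 146 and 205 CPM in these cells and to 63.8 and 170 CPM in fibroblast-like cells. None of the 6 was past 1.5-fold the same way in both libraries. Of other pathway genes, 9 of 39 were higher and 1 lower. Slc2a3 was at 66.6 and 81.8 CPM against 13.3 and 11.6 CPM, and Plod2, a collagen lysyl hydroxylase, was lower at 150 and 186 CPM against 302 and 349 CPM.

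Among the fibroblast clusters the scores lay closer together. Above the Sfrp4 and Fmod fibroblasts came the Cemip (6.08 and 6.36), Dmkn (6.24 and 6.23) and cycling fibroblasts (6.401 and 6.441). Cemip and Dmkn changed places between libraries. Dmkn fibroblasts were higher than Sfrp4 fibroblasts for 13 of 30 genes and lower for 0 (5.13% of 8467 genes were higher and 5.79% lower). Slc16a3 was at 54.3 and 50.1 CPM against 4.31 and 10.4 CPM, and Bnip3 at 104 and 100 CPM against 28.6 and 37.4 CPM. Ndrg1 was at 192 and 185 CPM against 70.1 and 82.2 CPM. Against Fmod fibroblasts, Dmkn fibroblasts were higher for 7 of 31 genes, among 10.0% of 8690 genes, and Cemip fibroblasts for 6 of 29, among 3.29% of 8489 genes, with 0 lower in each, where 10.1% and 5.03% of genes were. The 7 were Slc2a1, Hk2, Pfkp, Bnip3, Ndrg1, Adm and Ankrd37, and the 6 were Hk2, Ero1l, Bnip3, Ndrg1, Adm and Ddit4. Both comparisons share the Fmod cells. Cycling fibroblasts were higher than Cemip fibroblasts for Pgk1, Pgam1, Eno1, Pkm and P4ha1, 5 of 31 genes among 14.4% of 8766 genes, and lower for Adm, among 5.07%. Both shares lie near those of all genes.

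Endothelial-like cells did not stand apart from fibroblast-like cells in the 33 genes as a set, though single genes and other pathway genes differed. Of 30 genes 9 were higher and 5 lower, near the 28.1% and 17.2% of 9434 genes. With median-of-ratios scaling in place of totals the split was 6 higher and 8 lower, and the shares of all genes were not computed there. Hk1 was 4.93-fold (4.63 to 5.25) and 4.17-fold (3.76 to 4.63) higher, and Ndrg1 was at 424 and 219 CPM against 119 and 127 CPM. Hk2 was far lower in each library, with ratios of 0.0286 (0.0239 to 0.0339) and 0.0650 (0.0499 to 0.0832), and P4ha2 was at 14.3 and 20.6 CPM against 129 and 133 CPM. Bnip3 was at 27.4 and 33.1 CPM against 60.6 and 82.8 CPM, and P4ha1 and Adm were the other 2 lower genes. Of other pathway genes, 4 of 39 were higher and 20 lower in endothelial-like cells. Among them, 1 of 19 further hypoxia targets was higher and 13 were lower. In mural cells 4 of 31 genes were higher (Hk1, Pfkp, Egln3 and Ddit4; 21.8% of 9310 genes were) and 5 lower (Hk2, P4ha2, Bnip3, Ndrg1 and Adm; 12.1% were), on 47 and 159 cells. With 12.9% of the genes higher and 16.1% lower, the set did not stand out from all genes there. Of other pathway genes, 6 of 40 were higher and 9 lower in mural cells.

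Between the sorts, few of these genes passed 1.5-fold in most whole populations. In fibroblast-like cells 0 of 30 genes were past 1.5-fold in either direction between Tom positive and Tom negative cells, where 0.831% of 8664 genes were higher and 1.57% lower. The median difference was -0.19, against -0.01 over all genes, and 2 of the 30 were on the positive side. The count was also 0 of 31 in macrophage-like cells (1.04% of 8258 genes higher, 1.65% lower), 0 of 31 in Nos2 macrophages (1.83% and 4.45% of 7527) and 0 of 32 in the Tnc/Acta2 cells (1.01% and 1.46% of 8607). In the neutrophil-like cells 2 of 31, P4ha2 and Bnip3, were lower in the Tom positive library and 0 higher. Of 7816 genes, 35.4% were higher there and 5.69% lower, and the median of all genes was shifted by 0.38. The values given are not corrected for that shift. The 31 genes had a median of -0.25. Bnip3 had 573 CPM in the neutrophil-like cells of the Tom positive and 890.1 CPM in those of the Tom negative library, and P4ha2 rests on 6 and 26 UMIs. In mural cells 1 of 31 genes was higher and 3 lower, near the 9.1% and 8.01% of 9515 genes.

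Endothelial-like cells differed more between the sorts. In the Tom positive cells 9 of 30 genes were lower, beside 7.77% of 9069 genes, and 1 was higher, beside 4.6%. The 9 were Hk2, Tpi1, Pgk1, Pgam1, Eno1, Pkm, Ldha, Slc16a3 and Adm. Eno1 had 144 CPM (Tom positive) and 274 CPM (Tom negative), a ratio of 0.527 (0.487 to 0.570), and Ldha had 254 and 423 CPM (interval of the ratio 0.564 to 0.638). Slc16a3 was at 15.7 and 37.3 CPM. Ndrg1 was the gene that was higher, at 424 against 219 CPM, a ratio of 1.93 (1.79 to 2.09). Other measures moved with this difference: the 6 immune transcripts summed to 111 CPM (Tom positive) and 769.7 CPM (Tom negative), where Cd74 alone had 15.03 and 399 CPM, and 118 of the 237 Tom negative cells carried doubted barcodes against 1 of 509. Hk2 rests on few UMIs: with each cell thinned to 2000 UMIs its direction was reversed, at 3.217 on the log2 scale, on 8 UMIs in the Tom positive and 0 in the Tom negative cells. Without doubted barcodes the count of lower genes was 9 as well, and as a mean over cells it was 5. The part of immune transcripts in the result was not tested.

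The reporter itself varied widely among the Tom positive fibroblasts, so the 33 genes were also compared by its level. Cells with at least 500 CPM of tdTomato were called reporter-high (197 cells, 1722 CPM on average) and the others reporter-low (1120 cells, 44.7 CPM), beside 1964 Tom negative cells at 13.4 CPM. Of 32 genes, 14 were higher by 1.5-fold or more in reporter-high cells and 0 lower, beside 3.87% and 3.34% of 8706 genes. All 32 lay on the positive side, and their median difference was 0.53 against -0.03 over all genes. The score was 6.47 in reporter-high, 5.83 in reporter-low and 6.19 in Tom negative cells, so that the Tom negative cells lay between the 2 levels of the Tom positive library. Both levels come from 1 library, so the comparison has no replicate.

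By role, the 14 genes took in the entry of glucose, 3 enzymes of glycolysis, the handling of lactate and pyruvate and hypoxia targets, and neither hexokinase. At the entry, Slc2a1 was at 66.0 CPM in reporter-high, 35.4 CPM in reporter-low and 45.6 CPM in Tom negative fibroblasts. Among the enzymes, Eno1 was at 280.0, 147.0 and 241 CPM and Pgk1 at 275, 162 and 230 CPM. Slc16a3, the lactate exporter, was at 87.1, 30.1 and 52.3 CPM, a ratio of high to low of 2.89 (2.63 to 3.18), and Pdk1 had 36.1, 15.1 and 20.8 CPM, 2.39-fold (2.07 to 2.76) from low to high. In all of these the Tom negative value was the middle one. Bnip3 was at 116, 50.8 and 82.8 CPM, Ndrg1 at 193, 106 and 127 CPM and Higd1a at 170, 99.4 and 125 CPM. Egln3 (14.7, 4.41 and 7.40 CPM) and Ankrd37 (17.0, 5.67 and 9.47 CPM) had ratios of 3.34 and 2.99 but were low in all 3 groups. Both reached 10 CPM only in reporter-high cells, so they could be counted only as higher there. Pfkl, Pfkfb3, Egln1 and Ero1l were the other 4 of the 14. Gapdh, at 1047, 787 and 1016 CPM, was 1.33-fold (1.30 to 1.36) higher and did not pass.

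**Figure D4:**
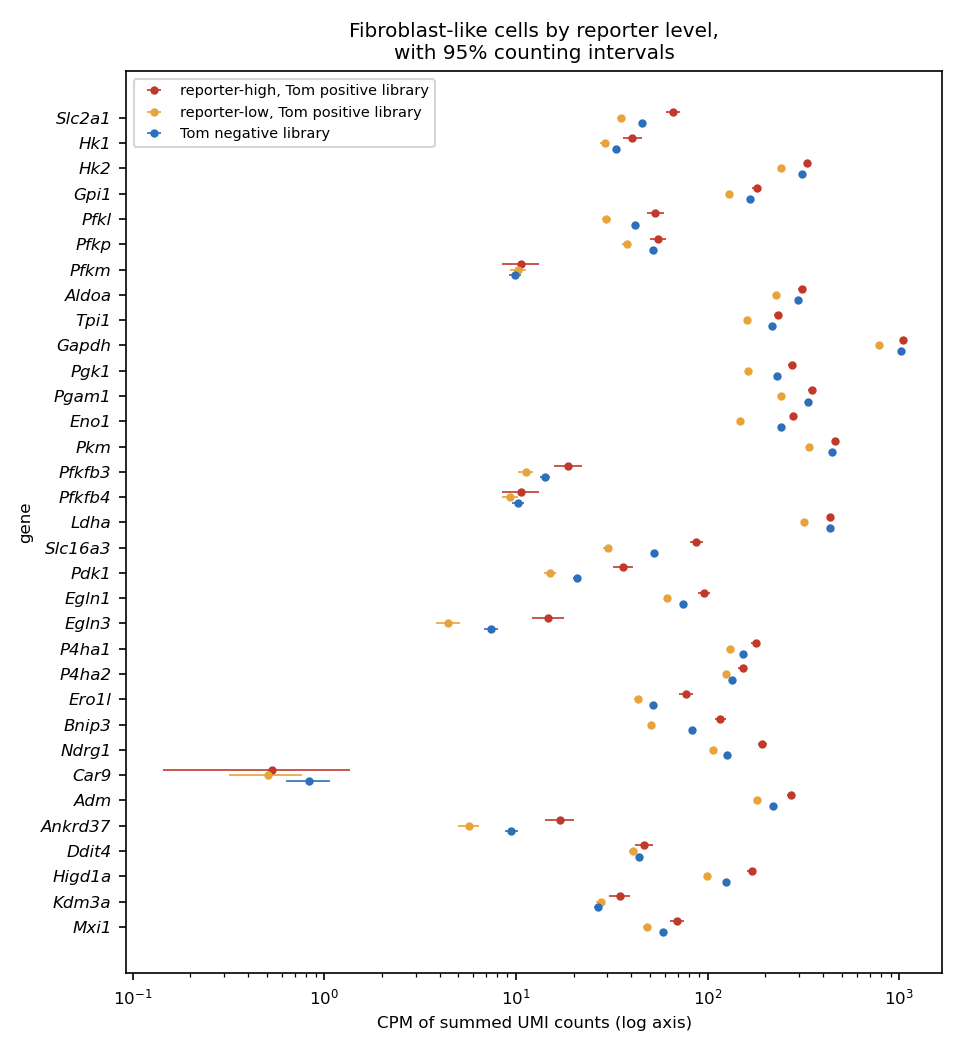
Level of each of the 33 genes (vertical axis) in fibroblast-like cells as CPM on a log axis, for reporter-high cells (red) and reporter-low cells (orange) of the Tom positive library and for cells of the Tom negative library (blue), with bars for 95% counting intervals. Red points lie right of orange points for the 32 genes compared, and blue points mostly lie between them, as for Slc16a3 at 87.1, 52.3 and 30.1 CPM.

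Set directly against the Tom negative fibroblasts, reporter-high cells were higher for 5 of 32 genes (Slc16a3, Pdk1, Egln3, Ndrg1 and Ankrd37) beside 0.876% of 8675 genes. Of these, Egln3 and Ankrd37 were under 10 CPM in Tom negative cells and could be counted only as higher. Reporter-low cells were lower for 3 of 30 (Eno1, Slc16a3 and Bnip3) beside 2.33% of 8687 genes, with Egln3 and Ankrd37 too low to compare. The 2 comparisons share the Tom negative cells. Neither had a member in the opposite direction, where 1.99% of genes were lower in reporter-high and 1.2% higher in reporter-low cells. These calls depended on which cells were counted. With the Tnc/Acta2 cells of both libraries counted as fibroblasts, a choice made after seeing the data, 0 of 32 genes were higher in reporter-high cells than in Tom negative cells (0.539% of 8714 genes were), and 6 of 32 were lower in reporter-low cells (2.04% of 8709). By cluster, reporter-high cells were higher than Tom negative cells for 6 of 29 genes in Fmod (6.03% of 8895 genes) and 16 of 31 in Sfrp4 fibroblasts (12.1% of 8953). Pfkfb4, Pdk1 and Ankrd37 were under 10 CPM in Tom negative Sfrp4 fibroblasts and could be counted only as higher. The counts were 1 of 30 in Cemip (1.95% of 8480) and 3 of 32 in Dmkn fibroblasts (1.98% of 8450), and 0 of 32 in the Tnc/Acta2 cells (1.65% of 8662).

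Reporter-high cells were not spread evenly over the clusters: they made up 46.1% of Dmkn, 15.1% of Cemip, 8.03% of Fmod and 6.11% of Sfrp4 fibroblasts. Holding the cluster mix equal left 13 of the genes higher, with a median of 0.45, but the share of all genes was not computed under that setting. Within clusters, reporter-high cells were higher for 10 of 32 genes in Dmkn fibroblasts (77 cells, 3.52% of 8590 genes) and 9 of 31 in Cemip fibroblasts (63 cells, 2.74% of 8459). They were higher for 9 of 29 in Fmod fibroblasts (29 cells, 6.41% of 8876) and 19 of 31 in Sfrp4 fibroblasts (19 cells, 11.9% of 8949). In each cluster 0 were lower, where 4.8% (Dmkn), 2.85% (Cemip), 7.1% (Fmod) and 10.7% (Sfrp4) of all genes were. Among the 19 in Sfrp4 fibroblasts, Pfkm, Pfkfb3, Pfkfb4, Slc16a3, Pdk1 and Ankrd37 reached 10 CPM only in reporter-high cells, on 8 to 16 UMIs each. These genes could be counted only as higher. Slc16a3, Pdk1 and Bnip3 were among the higher genes in each of these 4 clusters, in the reporter-high Sfrp4 cells on 15, 16 and 44 UMIs. In the Tnc/Acta2 cells, of which 35.9% were reporter-high, fewer genes passed, and whether the difference itself differs was not tested: 2 of 32 were higher (Ero1l and Bnip3; 2.38% of 8662 genes) and Ankrd37 was lower (2.07%). With these cells counted as fibroblasts, a choice made after seeing the data, 21 of 32 were higher beside 3.08% of 8739 genes.

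Other measures moved with reporter level in fibroblasts. Of the 6 immune transcripts 4 (C1qa, S100a8, S100a9 and Cd74) were past 1.5-fold higher in reporter-high cells and none was at 0, at 104 against 56.8 CPM in sum, and Tom negative cells had 170 CPM. In Sfrp4 fibroblasts the sums were 457 and 87.2 CPM, and in Fmod fibroblasts, where S100a8 and S100a9 rest on 72 and 84 UMIs in reporter-high cells, 201 and 45.7 CPM. In Dmkn fibroblasts, where 10 of the genes were higher, the immune sums were 57.2 and 44.5 CPM. In Cemip fibroblasts, where 9 of the genes were higher, they were 39.0 and 54.4 CPM. The dissociation list summed to 7485 and 6125 CPM, Egr1 being past 1.5-fold at 1895 against 1210 CPM. Median depth was 37859 and 39204 UMIs, and the share of mitochondrial UMIs 3.09% and 3.51%. The parts of immune transcripts and of dissociation in the result were not tested. Of other pathway genes, 10 of 40 were higher and 0 lower, 9 of them hypoxia targets. Vegfa was at 152 and 65.5 CPM, and Hif1a at 407 and 370.0 CPM, which did not pass.

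From cell to cell, the 33 genes varied most in the Tnc/Acta2 cells among the 11 populations examined. With each cell thinned to 10000 UMIs, the genes made up 0.320% of UMIs at the 10th percentile of Tom positive Tnc/Acta2 cells, 0.625% at the median and 1.95% at the 90th percentile, and 0.373%, 0.735% and 2.04% in the Tom negative library. The 90th percentile was thus 6.09 and 5.46 times the 10th. In Nos2 macrophages, whose median was 2.51% and 2.49%, the factor was only 2.09 and 1.87, and in Sfrp4 fibroblasts 2.22 and 2.24. Some Tnc/Acta2 cells therefore lay above the 10th percentile of Nos2 macrophages (1.74% and 1.82%), while most lay below it.

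**Figure D5:**
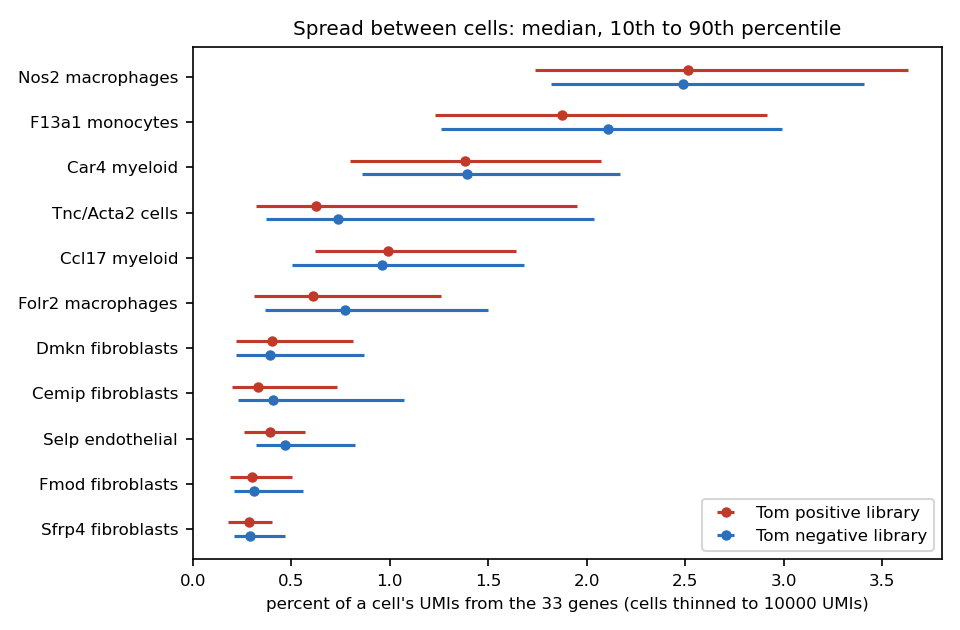
Percent of a cell's UMIs that come from the 33 genes (horizontal axis), after thinning each cell to 10000 UMIs, in 11 populations (vertical axis); points are medians over cells and bars run from the 10th to the 90th percentile, red for the Tom positive and blue for the Tom negative library. The bar of the Tnc/Acta2 cells, from 0.320% to 1.95% and from 0.373% to 2.04%, is long for its median, and those of Sfrp4 and Fmod fibroblasts are short. Neutrophils are not shown, as few reach 10000 UMIs.

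The glycolytic and the hypoxia genes varied together in those cells. Across 216 and 514 thinned Tnc/Acta2 cells, Spearman's rho between the summed counts of the glycolytic and of the other genes was 0.78 and 0.79. It was 0.44 and 0.60 in Cemip, 0.52 and 0.50 in Dmkn and 0.24 and 0.28 in Fmod fibroblasts, and 0.04 and -0.09 in the main endothelial cluster. In the myeloid populations examined it ran from 0.463 to 0.671, so the trait was not particular to the Tnc/Acta2 cells. Over the 300 pairs of genes at 50 CPM or more in Tnc/Acta2 cells, the median rho was 0.39 and 0.38, against 0.00 over pairs of all 3360 and 3383 genes at that level. In the same cells the share of the 33 genes ran against the share of mitochondrial UMIs, with rho of -0.39 and -0.49. It did so too in Nos2 macrophages (-0.339 and -0.295), Car4 cells (-0.308 and -0.368) and Cemip fibroblasts (-0.288 and -0.286), but not in Folr2 macrophages (0.030 and 0.095). These correlations are across cells of 1 library each, which share depth, dissociation and processing, and are given as descriptions.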

How the data were processed

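The deposited files hold 10x Genomics UMI counts for 2 libraries, with 7568 and 13604 barcodes and 128275546 and 164646314 UMIs. Per the submitters' processing notes the authors used Cell Ranger 7.0.1 and build mm10; how barcodes were called as cells is not given in the sources used here. Both libraries were filtered together to barcodes with at least 500 genes, 1000 UMIs and at most 10% mitochondrial UMIs, and 63 and 97 doublets were removed. Cells were clustered with scanpy 1.11.5 (2000 variable genes, 30 principal components, 15 neighbours, Leiden resolution 1), and clusters were named from marker lists; 5 of 28 stayed unnamed. Counts were summed per population and library, scaled to CPM, and compared as log2(CPM + 1), with Poisson intervals for levels and exact conditional intervals for ratios. Features with the same symbol (Aldoa has 2) were summed. The counting and interval code was checked on simulated counts. There, unchanged genes passed 1.5-fold in 1 library far more often, and changed genes less often, between the shallow neutrophil clusters than between macrophage clusters.

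With 1 library per sort there is no residual between samples, so no p-value is given. All 33 genes are named, ordered by role. The members and gene lists were chosen with earlier results of these data known. Alternatives covered the scaling, the pseudocount, the minimum level, the cell filters, doublets, doubted barcodes, the genes used in clustering, thinning and the reporter threshold. Promoter windows came from the RefSeq table for GRCm38.p6. Other software was Python 3.11, numpy 2.4.6, scipy 1.17.1, pandas 2.3.3 and matplotlib 3.10.9.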

Additional observations from a re-analysis of the deposited data

Results flagged for a closer look

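Ankrd37 moved in opposite directions in populations set under the same contrast, and the differences between populations were not tested. Between the sorts it was lower in Tom positive than in Tom negative Folr2 macrophages, by -0.70 on the log2 scale (72 and 111 UMIs), and higher in Tom positive Cd177 neutrophils, by 0.68 (51 and 21 UMIs). Between reporter-high and reporter-low cells it differed by -0.69 in the Tnc/Acta2 cells (51 and 170 UMIs), and by 0.71 in Cemip (34 and 114 UMIs), 0.81 in Dmkn (65 and 38 UMIs) and 1.91 in Sfrp4 fibroblasts (8 and 24 UMIs). All of these rest on low counts, and no explanation was tested.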

How the results depend on the processing

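Of 214 alternative values of the counts and scores, 209 were labelled as unchanged and 5 were not, and the cause was not tested. The 209 include the median difference by reporter level, for which no limit was set. It was labelled as unchanged whatever its value, so its label says nothing about how stable it was. The others of the 209 stayed within the limit set for them. Against 5 genes lower in endothelial-like than in fibroblast-like cells, median-of-ratios scaling gave 8. Against 9 lower in Tom positive endothelial-like cells, the mean over cells gave 5. Between sorts, fibroblast-like cells had 1 lower gene with a mitochondrial limit of 20% and macrophage-like cells 2 with each cell thinned to 2000 UMIs, against 0 in each. The score of macrophage-like minus fibroblast-like cells, 1.28 as the mean of both libraries, was 0.55 when cells needed only 200 genes and any number of UMIs. Under that filter Ndrg1 was reversed between these classes, at -1.265, and in the thinned cells Hk2 was reversed between the sorts of endothelial-like cells, at 3.217. Among 3795 values of single genes, 84 newly passed 1.5-fold, 43 no longer did and these 2 reversed.

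The count of genes higher in reporter-high fibroblasts was 13 to 16 under the other alternatives run. After seeing the data, 2 others were added: it was 21 with the Tnc/Acta2 cells and 13 without cycling fibroblasts. Among these alternatives the share of all genes was computed only for the count with the Tnc/Acta2 cells. No value could be given for the monocyte-like and Car4 clusters under any of the 7 alternatives that clustered the cells anew. The same held for the Prok2 and Cd177 clusters under 3 of them and for the Nos2 and Folr2 clusters under 1. No paired analysis was possible because the 2 sorts share fewer than 2 replicate numbers. Depth was low in neutrophils and in Tom negative endothelial-like and lymphatic cells (medians of 2151 and 1605 UMIs), and thinning left out 1807 cells.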
